A study of Drosophila melanogaster with 4 samples.

Results

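Open chromatin was mapped around 6 genes of Drosophila melanogaster, most of them known from tracheal development. Of these, vvl and trh encode transcription factors, and bnl and btl encode a growth factor and its receptor. Cad99C and uif encode cell surface proteins. The assay was FAIRE-seq, in which sheared, crosslinked chromatin is extracted with phenol and the DNA that stays free of nucleosomes is sequenced. Wings of female pupae were compared between Osa-deGrad animals (2 libraries) and control animals (2 libraries), with 40 wings per library per the labels' protocols. All animals carried osa-GFP on both homologues, so that Osa, an ARID-domain protein of the SWI/SNF (Brahma) chromatin remodelling complex, was GFP-tagged in both genotypes. All animals also had the UAS-Nslmb-vhhGFP transgene, whose product targets GFP-tagged protein for destruction (deGrad). Osa-deGrad animals alone carried the driver nub-GAL4, which is active in the developing wing. The labels do not say which cells of the pupal wing expressed the driver, nor do they give a measurement of Osa protein. Animals grew at 23 °C, were moved to 29 °C as wandering larvae, were staged as prepupae at 0 to 12 h after puparium formation (APF), and were dissected at 24 to 36 h APF. Nothing in the labels ties the replicates to separate crosses or days, so differences between replicates may be technical. The design text of the series speaks of anti-GFP CUT&RUN on larval discs, whereas the sample labels and the title give FAIRE-seq of pupal wings, which was followed.

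The deposited data were 1 peak list per library on dm6, with 13959 and 17048 peaks in Osa-deGrad replicates 1 and 2 and 13953 and 18007 peaks in control replicates 1 and 2. Both replicate 2 lists were longer, so list length went with the replicate number in both genotypes. Read depth is unknown from these files, and a missing peak can be a site just below the peak caller's threshold. Each locus was the gene body plus 40 kb on either side for vvl and 10 kb for the other genes, and a peak belonged to a locus when its summit lay there. Overlapping peaks of the 4 lists were merged, which gave 98 regions at the 6 loci out of 24088 in the genome. A region is termed deGrad-only when it was found in the 2 Osa-deGrad lists and absent from the controls, and control-only in the reverse case. Each peak was ranked within its own list by −log10 q, where a percentile near 100 marks the strongest peaks of that list. The genes were chosen on results of these same libraries, among them control-only regions near some tracheal genes. Presence and percentile values are therefore given as descriptions, without tests. With 2 libraries against 2 the smallest two-sided exact p would in any case be 0.333.

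The tracheal system of the fly is a branched epithelial tube network that carries air to the tissues, and tracheae also run inside the veins of the wing. Trh, a bHLH-PAS transcription factor, gives cells tracheal identity, and Vvl (also called Drifter), a POU-domain transcription factor, acts with it in the embryo. The FGF ligand Branchless (bnl) is secreted by target tissues and attracts tracheal cells that carry the FGF receptor Breathless (btl). Vvl is also a wing gene in its own right, since its loss removes wing veins. An open region near a gene can be a promoter or an enhancer, but accessibility alone shows neither that the gene is transcribed nor in which cells. The samples were whole wings, so fewer cells with an open region and a less open region in each cell cannot be told apart.

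Most regions that recurred at the 6 loci were found in both genotypes, and those found in 1 genotype were mostly control-only. Of the 98 regions, 57 were in at least 2 lists and 20 in all 4 lists. The lists held 41 and 57 of the regions in Osa-deGrad replicates 1 and 2, and 49 and 61 in control replicates 1 and 2. There were 2 deGrad-only regions, both at uif, and 9 control-only regions, with 4 at vvl, 3 at Cad99C, 1 at bnl and 1 at uif. In the genome, 3.35% of the 15813 regions in at least 2 lists were deGrad-only and 5.45% control-only, and 7900 were in all 4 lists. At the 6 loci the shares were 3.51% deGrad-only and 15.8% control-only of 57, and control-only regions are what the genes were chosen on. Regions in 3 lists were divided about evenly. There were 7 regions in both Osa-deGrad lists and 1 control list (12.3% of 57, against 14.1% in the genome) and 6 in both control lists and 1 Osa-deGrad list (10.5%, against 10.6%). In 6 of those 7 the missing list was control replicate 1, and in all of those 6 it was Osa-deGrad replicate 1, the shorter list of each genotype. Without control replicate 1 the control-only count was 18, without control replicate 2 it was 21, without Osa-deGrad replicate 2 it was 15 and without Osa-deGrad replicate 1 it stayed at 9. The deGrad-only count was 16, 9 and 8 without Osa-deGrad replicate 1, Osa-deGrad replicate 2 and control replicate 2, and 3 without control replicate 1. Leaving out a list lets 1 list decide for its genotype, which raises such counts by construction. With peaks of −log10 q of at least 10 there were 2 control-only and 0 deGrad-only regions. Only 1 of the 9 control-only regions kept its class there, at vvl, and the other was a trh region that all 4 lists held as deposited. There were 5 control-only regions with windows of 10 kb for every gene, and 0 of them at vvl. With windows of 40 kb for every gene there were 13 control-only and 3 deGrad-only regions. Among these, trh had 1 of each kind and btl had 1 control-only region, so counts per locus depend on the window.

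**Figure D1:**
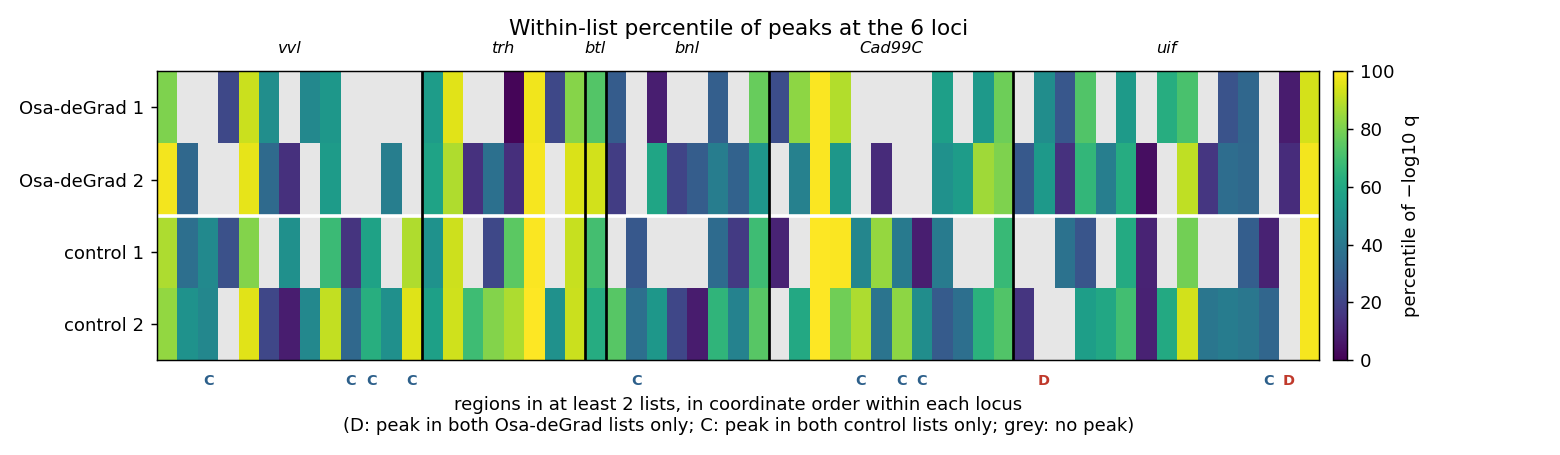
Heat map of the 57 regions at the 6 loci found in at least 2 peak lists, with the libraries in rows, regions in coordinate order in columns, and colour for the percentile of −log10 q within the list. The 9 regions marked C lie at vvl, bnl, Cad99C and uif, and the 2 marked D at uif.

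The vvl locus (Dmel_CG10037; gene on 3L, 6790158 to 6794941, dm6) was open beside the gene in every library, and its genotype-specific regions lay more than 20 kb away. The locus held 29 regions, of which 13 were in at least 2 lists. The gene body held no region shared by libraries, only 2 regions of 1 list each, both in Osa-deGrad. The region next to the gene (6789406 to 6790255, summit 149 bp outside it) was at percentiles of 91.8 and 96.3 in Osa-deGrad replicates 1 and 2, and of 81.6 and 95.7 in control replicates 1 and 2. The genotypes overlapped there, and this was the strongest shared region of the locus.

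Beyond the higher coordinate end of vvl lay a gene-free stretch in which control lists held more peaks. On that side the lists held 5 and 4 regions in Osa-deGrad replicates 1 and 2, and 11 and 10 in control replicates 1 and 2. Of the 18 regions there, 10 were in 1 list only and 8 in at least 2 lists, so much of this count rests on single lists. In the genome the lists held 13052 and 16268 regions in Osa-deGrad replicates 1 and 2, and 13082 and 17203 in control replicates 1 and 2. A shared region at 6824030 to 6824560, 29362 bp from the gene, was at 52.9 and 54.7 in Osa-deGrad wings, and at 68.2 and 90.8 in control wings. Both control percentiles exceeded both Osa-deGrad percentiles. Farther out lay 3 control-only regions. The nearest (6828862 to 6829044, 34033 bp from vvl) was a weak peak, at 14.9 in control replicate 1 and 33.7 in control replicate 2. The next (6830322 to 6830831, 35480 bp) was at 57.5 and 62.7 in the control libraries, with summits 202 bp apart. The farthest (6834199 to 6834588, 39523 bp) was the strongest of the 9 control-only regions of the 6 loci, at 88.1 and 95.0 in the controls, where the authors' fold enrichment was 9.21 and 11.1. Its control summits lay 11 bp apart. No Osa-deGrad list held a peak in any of the 3 regions, but a neighbour between them (6832810 to 6833187) was in Osa-deGrad replicate 2 at 42.6 and in control replicate 2 at 50.03.

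The fourth control-only region lay on the other side of vvl, 21134 bp from it (6768726 to 6769222), at 47.5 and 46.1 in the control libraries, with summits 5 bp apart. Its nearest annotated gene end was that of Rsph3, 5778 bp away. Other genes share this side of the locus, namely velo, Sbds, Ist1, Rsph3 and a long noncoding RNA gene. A region inside velo (6752207 to 6753114) was found in all 4 lists. No file assigns these regions to a target gene, so vvl is named here by position only.

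The trh locus (Dmel_CG42865; 3L, 366524 to 392633) had no genotype-specific region in the lists as deposited, but a region inside the gene ranked far lower in Osa-deGrad wings. Of 14 regions, 8 were in at least 2 lists and 5 in all 4. The region over the higher coordinate end of the gene (392515 to 393194, summit 56 bp from that end) was at 97.8 and 98.7 in Osa-deGrad wings, and at 99.4 and 99.8 in control wings. It was among the strongest peaks of every list, although both control percentiles were above both Osa-deGrad percentiles by a gap of 0.706 points. A region deeper in the gene (377772 to 378438) was at 95.5 and 88.02 in Osa-deGrad wings, and at 92.4 and 92.8 in control wings. The genotypes overlapped there.

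Between these 2 strong regions, one at 385402 to 385802, inside trh and 7089 bp from its end, was at 1.33 and 13.3 in Osa-deGrad wings, and at 74.8 and 87.6 in control wings. It was thus among the weakest peaks of the Osa-deGrad lists and in the upper part of both control lists. The authors' fold enrichment there was 2.89 and 2.90 in Osa-deGrad wings, and 7.31 and 9.18 in control wings. The difference in mean percentile, Osa-deGrad minus control, was -73.8 points, and only 5 of the 7900 regions in all 4 lists, this one included, had a difference at least as negative. Ranked by fold enrichment the difference was -76.9 points, and ranked only among regions in all 4 lists it was -65.3 points. Its −log10 q was 1.99 and 4.09 in Osa-deGrad wings, and 11.4 and 27.3 in control wings. With peaks of −log10 q of at least 5, or of at least 10, the region was therefore control-only by construction.

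Its neighbours on the lower side were picked out after their values were seen. The region at 383203 to 383879 was absent from Osa-deGrad replicate 1 and at 36.8 in replicate 2, against 21.5 and 81.4 in the control replicates 1 and 2. The region at 382800 to 383070 was found in the replicate 2 libraries alone, at 14.4 in Osa-deGrad and 69.1 in the control. The Osa-deGrad replicate 2 value at 383203 to 383879 lay between the control values, so the genotypes did not separate at that site.

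**Figure D2:**
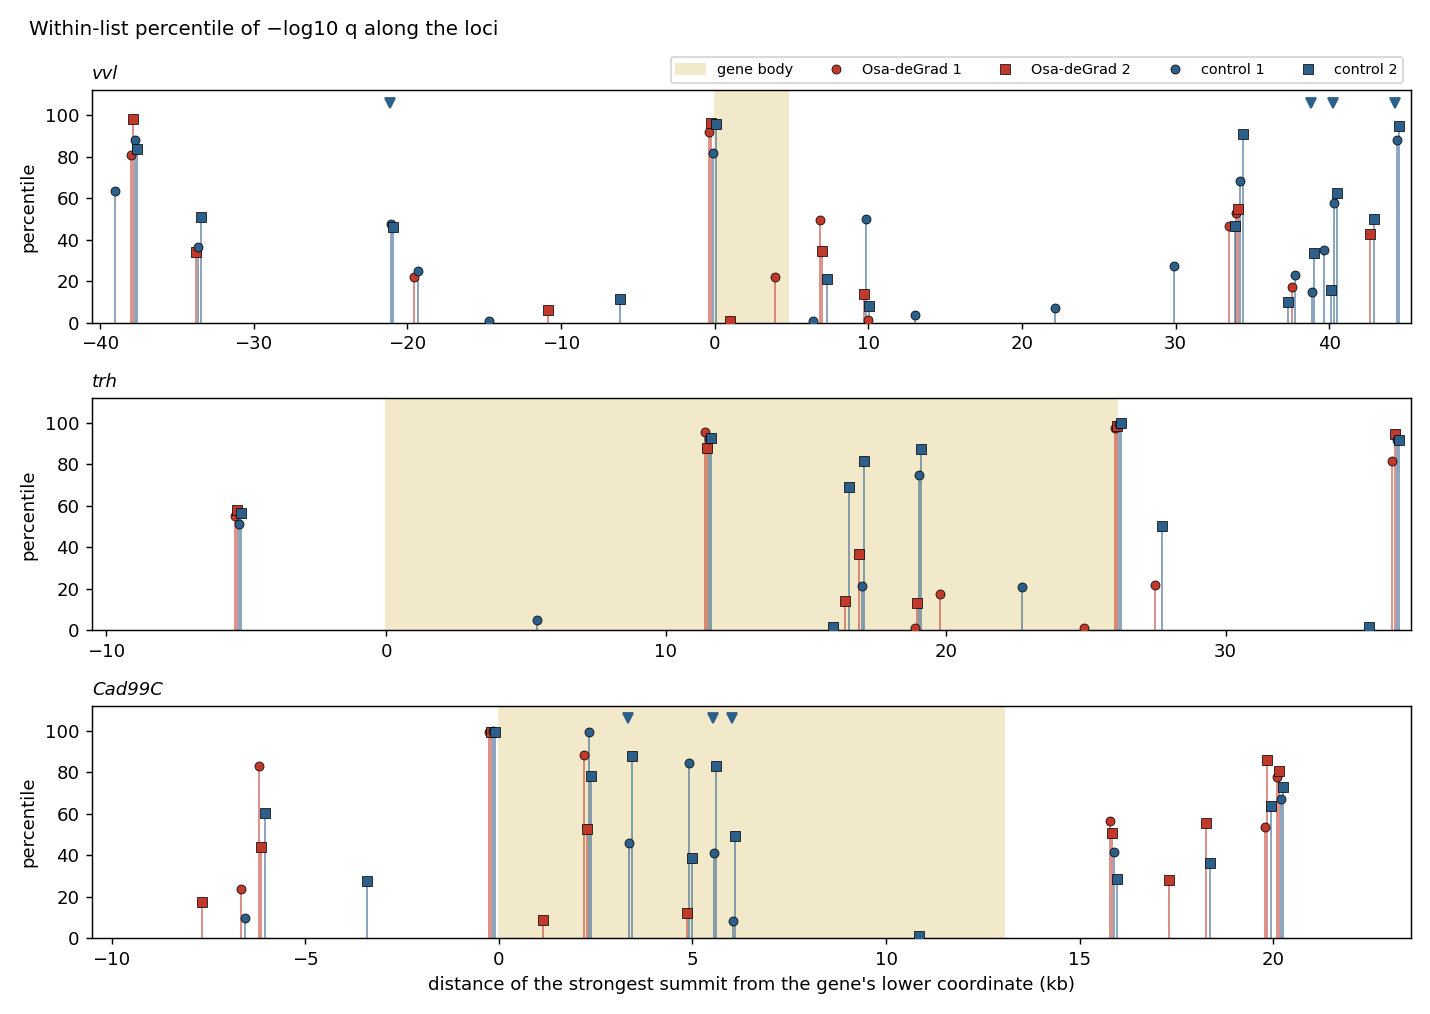
Percentile of −log10 q within each list (vertical axis) for every region at vvl, trh and Cad99C, by distance of the strongest summit from the gene's lower coordinate in kb. Circles are replicate 1, squares replicate 2, red Osa-deGrad, blue control, and blue triangles mark control-only regions, which lie more than 20 kb from vvl and inside Cad99C. At trh the region 7089 bp from the higher end stands at 1.33 and 13.3 in Osa-deGrad against 74.8 and 87.6 in control wings.

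The FGF ligand gene bnl (Dmel_CG4608; 3R, 19794073 to 19836817) was open at its higher coordinate end in every library. That region (19836809 to 19837120, summit 54 bp from the end) was at 76.9 and 52.6 in Osa-deGrad wings, and at 68.9 and 74.0 in control wings. The genotypes overlapped. The locus held 10 regions, 8 of them in at least 2 lists. Its control-only region lay 4655 bp outside the gene (19789144 to 19789517), with percentiles of 27.5 and 36.4 in the control libraries and summits 6 bp apart. It was flanked by regions that both genotypes shared in part, in a stretch that holds genes for transfer RNAs. The end of 1 of these, tRNA:Val-CAC-2-6, lay 704 bp from the control-only region. Near the same tRNA gene, 7 bp from its end, a region (19789983 to 19790255) was at 8.33 and 58.9 in Osa-deGrad wings and in control replicate 2 alone, at 52.9. The other region in all 4 lists (19802159 to 19802821) lay inside bnl, 90 bp from the end of a further tRNA gene.

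The FGF receptor gene btl (Dmel_CG32134; 3L, 14075772 to 14083229) had no peak within the gene in any list. The locus held a single region, outside the gene and in all 4 lists, and no genotype-specific region.

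Cad99C (Dmel_CG31009; 3R, 29841657 to 29854699) encodes a protocadherin that the fly uses in microvilli of the follicle epithelium. The gene's lower coordinate end was strongly open in both genotypes, while regions inside the gene were found mostly in control wings. The region at that end (29840889 to 29841870, summit 178 bp outside) was at 99.3 and 99.6 in Osa-deGrad wings, and at 99.9 and 99.6 in control wings. The gap between the genotypes was 0.0327 points. Inside the gene, the lists held 1 and 3 regions in Osa-deGrad replicates 1 and 2, and 5 and 6 in control replicates 1 and 2. Of the 7 regions there, 2 were in 1 list only and 5 in at least 2 lists. The 3 control-only regions lay within 6018 bp of that end. The first (29844722 to 29845283) was at 45.8 and 87.7 in the control libraries, the second (29847034 to 29847291) at 40.9 and 82.8, and the third (29847401 to 29847779) at 8.22 and 49.1. All 3 ranked higher in control replicate 2 than in control replicate 1. The control summits lay 142, 8 and 171 bp apart in these regions. Where every list had to have a summit within 150 bp of the strongest one, the third region and the vvl region at 6830322 to 6830831 were no longer control-only, since 1 control list alone then held them.

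The 2 other recurrent regions inside Cad99C, picked out after their values were seen, also had lower percentiles in Osa-deGrad wings on average or lacked a peak. The region at 29846385 to 29846764 was absent from Osa-deGrad replicate 1 and at 12.4 in replicate 2, against 84.3 and 38.6 in the control replicates. The region at 29843730 to 29844211, found in all 4 lists, was at 88.3 and 52.9 in Osa-deGrad wings, and at 99.5 and 78.3 in control wings. Its difference in mean percentile was -18.3 points, but the genotypes overlapped.

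Outside Cad99C, a region of the opposite order lay beyond the higher coordinate end. This region, 35 bp from the end of dgt1 (29857381 to 29857696), was at 56.3 and 50.8 in Osa-deGrad wings, and at 41.5 and 28.5 in control wings. Both Osa-deGrad percentiles were the higher ones there, by a gap of 9.30 points. The gap closed when the regions in all 4 lists were ranked among themselves.

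The uif gene (Dmel_CG9138; 2L, 6972828 to 7010359) encodes Uninflatable, an apical membrane protein needed for the larval trachea to fill and grow. The locus had specific regions in both directions, most of them weak. It held 27 regions, with 15 in at least 2 lists and 12 in 1 list. The region at the higher coordinate end (7009620 to 7010634, summit 391 bp inside that end) was at 93.6 and 98.1 in Osa-deGrad wings, and at 98.6 and 98.6 in control wings. Both control percentiles were higher, by less than 1 point, and the order was lost when peaks were ranked by fold enrichment. Of the deGrad-only regions, 1 lay inside uif, 992 bp from that end (7009184 to 7009445), at 7.75 and 12.8 in the Osa-deGrad libraries. The other (6964340 to 6964555) lay 8411 bp outside uif and 4 bp from the end of Coprox, a heme synthesis gene, at 49.04 and 53.5. The control-only region (7005956 to 7006296) lay inside uif, 4171 bp from its end, at 9.58 and 33.1 in the control libraries. Of these, only the Coprox region lay near the middle of its lists.

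Between uif and its neighbour snRNP-U1-70K, a shared region (6971596 to 6972015) was at 72.9 and 66.3 in Osa-deGrad wings, and at 26.3 and 56.1 in control wings. Both Osa-deGrad percentiles were higher, and the difference in mean percentile of 28.4 points was the most positive of the 6 loci. Its summit lay 193 bp from the end of snRNP-U1-70K and 898 bp from uif. The 4 shared regions inside uif had differences between -7.26 and -1.19 points, smaller than that beside the gene.

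**Figure D3:**
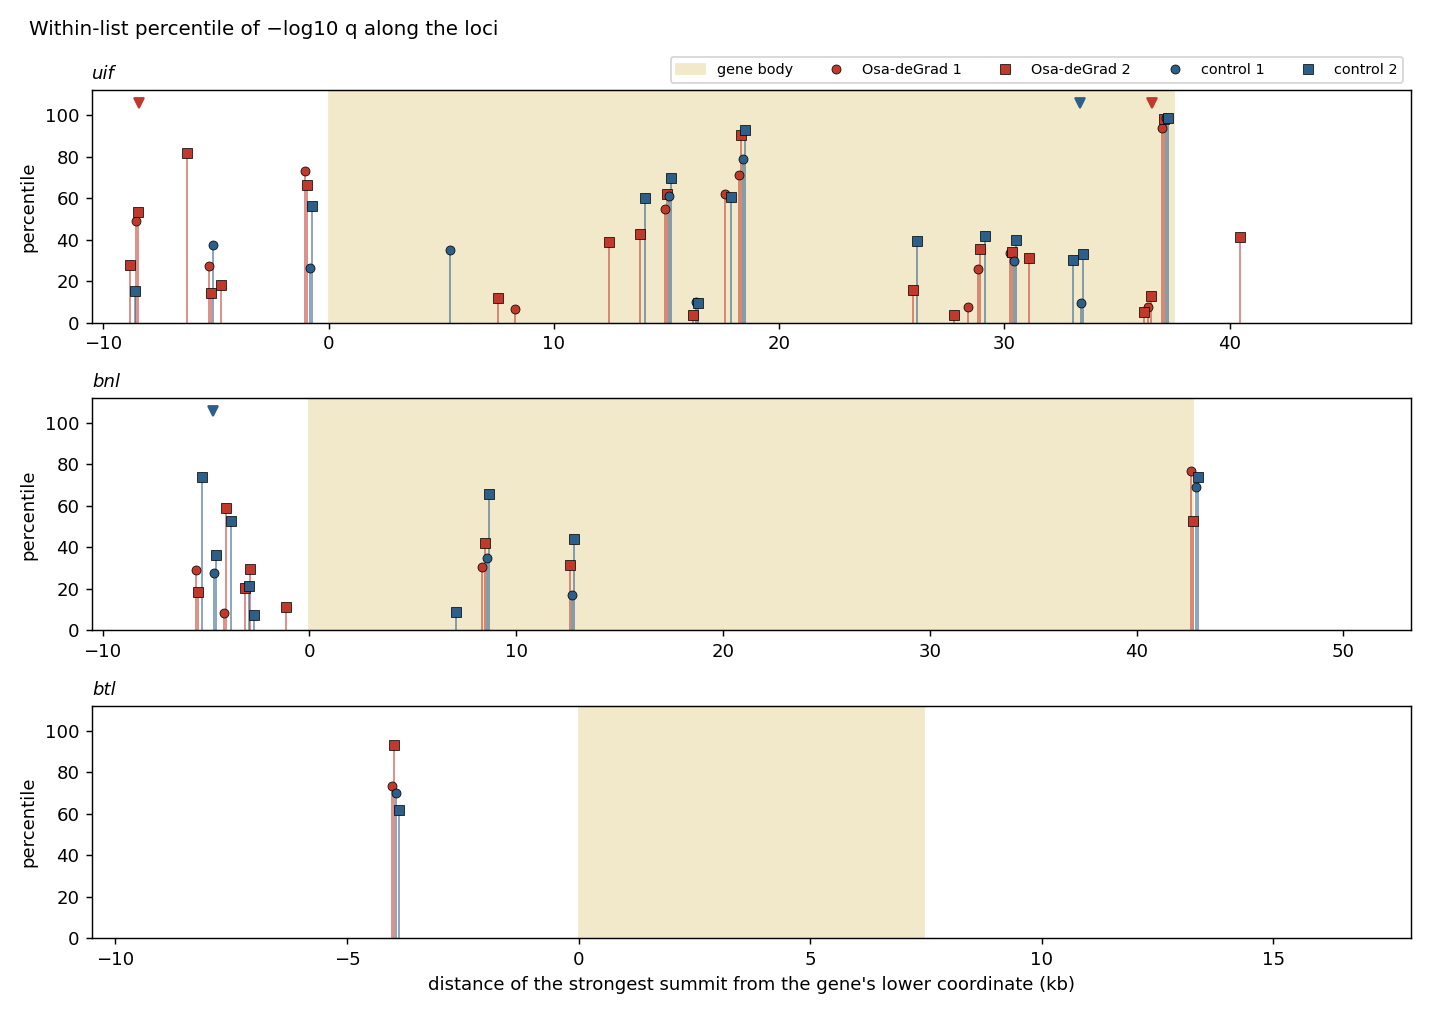
Percentile of −log10 q within each list for every region at uif, bnl and btl, by distance of the strongest summit from the gene's lower coordinate in kb, with red and blue triangles for deGrad-only and control-only regions. The higher coordinate ends of uif and bnl are open in all 4 libraries, and btl holds no peak inside the gene.

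Across the 6 loci, regions shared by all 4 lists differed in percentile between the genotypes in both directions. The difference in mean percentile, Osa-deGrad minus control, had a median of -1.29 points over the 20 shared regions and of 0.284 points over all 7900 in the genome. The SD between replicates, taken over these same 20 regions, was 9.67 points, so differences of about that size can come from replicate spread alone. The difference was positive in 7 and negative in 13 of the 20. In the genome it was positive in 4014 and negative in 3885 of the 7900. Both Osa-deGrad percentiles were above both control percentiles in 4 of the 20 (15.9% in the genome), and below both in 5 (18.3% in the genome). In 3 of those 5, at the ends of trh, Cad99C and uif, the gap was under 1 point, which leaves the trh and vvl regions described above. The gap was over 1 point in all 4 regions where Osa-deGrad was above. Gaps of that size were found in 4 regions with Osa-deGrad above and in 2 with Osa-deGrad below, against 4 and 5 without a cut. No direction is read from these counts. In the 3 regions with gaps under 1 point the higher Osa-deGrad percentile was at least 98.1, which leaves little room for a gap. A cut at 1 point therefore drops such regions largely by construction, and its share over the genome was not counted.

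**Figure D4:**
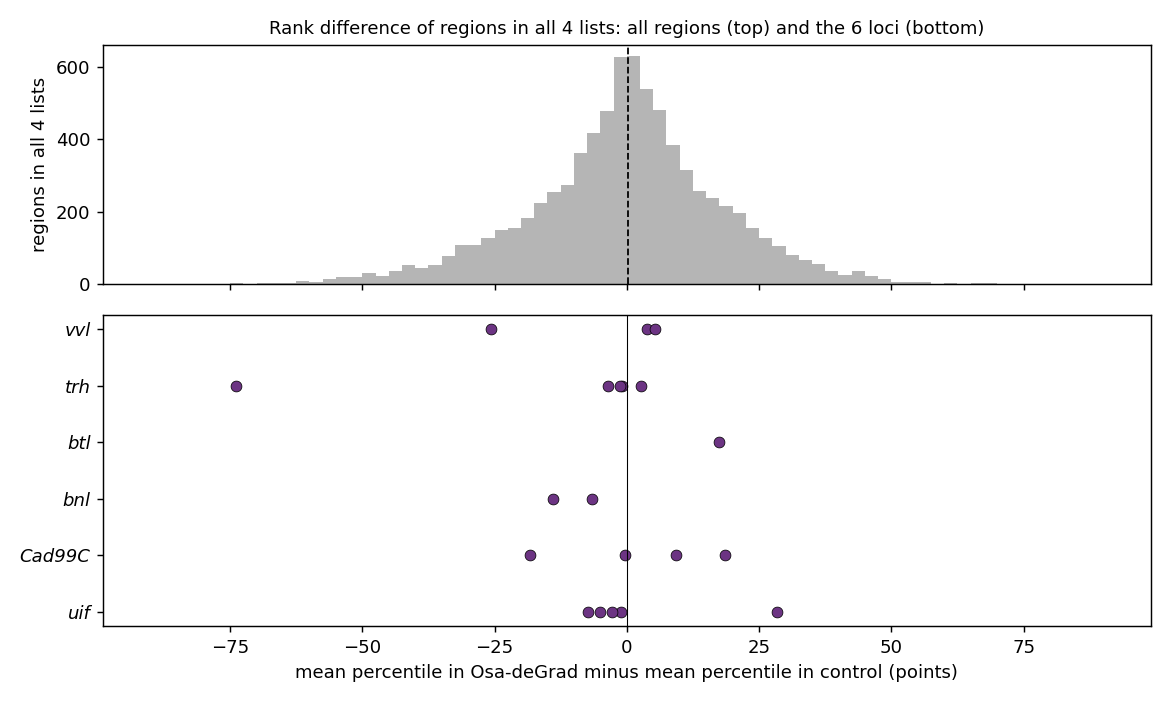
Difference in mean percentile, Osa-deGrad minus control, for all 7900 regions in all 4 lists (histogram, dashed line at the median of 0.284 points) and for the 20 such regions of the 6 loci (points by gene). The trh region at -73.8 points lies far from the other 19, which span -25.7 to 28.4 points.

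Position went with the direction of these differences at the 6 loci, and in the same direction over the genome, so this was not particular to these genes. Of the 57 regions in at least 2 lists, 25 had their strongest summit within 500 bp of an end of an annotated gene and 32 farther away. None of the 9 control-only regions and 1 of the 2 deGrad-only regions were among those 25. Among regions farther than 500 bp, 1 of 32 was deGrad-only (3.13%, against 3.05% in the genome) and 9 of 32 were control-only (28.1%, against 8.79%). The genes were chosen on control-only regions and all 9 lie here, so the last contrast repeats that choice. Among shared regions farther than 500 bp, all 8 had a lower mean percentile in Osa-deGrad wings, with a median difference of -6.12 points. In the genome 2327 of 4000 such regions were lower and 1672 higher, with a median of -2.35 points. The 12 shared regions within 500 bp were higher in 7 cases and lower in 5, with a median of 3.19 points. In the genome 2342 of 3900 such regions were higher and 1558 lower, with a median of 3.12 points. The 20 shared regions had a median width of 494.5 bp, the control-only regions 379 bp and regions of 1 list 159 bp. In the genome these widths were 461, 280.5 and 156 bp. A merged region spans the peaks of all its lists, so width grows with their number in part by construction.

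Regions of 1 list were mostly weak. The 41 such regions had a median percentile of 11.6, with 7 and 14 in Osa-deGrad replicates 1 and 2, and 11 and 9 in control replicates 1 and 2. At vvl, control replicate 1 alone held 8 of 16. The strongest of all, at 81.7, was in Osa-deGrad replicate 2, 176 bp from the end of Sumo near uif.

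Among 4 other gene lists, the share of control-only regions was below that of the genome in 3 and above it for POU-domain genes. Within the gene and 10 kb on either side, 10 genes of FGF signalling (such as the ligand gene pyr, the receptor gene htl and the antagonist gene sty) had 0 deGrad-only and 2 control-only regions of 80 in at least 2 lists. The control-only ones were at csw, at 39.9 and 30.7, and near pyr, at 9.14 and 7.78 in the control libraries. Tracheal transcription factor genes (10 of 11 symbols matched, among them tgo, the partner of Trh) had 0 and 2 of 62. These lay in knrl, at 23.6 and 17.9, and 5551 bp from salr, at 63.4 and 74.3. The share of control-only regions in this list was 3.23%, against 5.45% in the genome.

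Genes of the tracheal tube and its lumen had 1 deGrad-only and 3 control-only regions of 74 (4.05% control-only). The strongest of these was inside dpy, the gene of a giant matrix protein, at 71.6 and 66.9 in the control libraries. The 4 other POU-domain genes had 1 deGrad-only region of 29, near acj6, at 30.4 and 62.5 in the Osa-deGrad libraries. They had 3 control-only regions (10.3% of 29, against 5.45% in the genome), with 2 at pdm3 and 1 lying 5104 bp from nub, at 42.5 and 81.3 in the control libraries. The driver of the Osa-deGrad animals takes its name from nub.

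Peak presence at marker genes did not set the wing apart from other cell types. A region in all 4 lists lay within 5 kb of 5 of 5 wing epithelium genes (nub, vg, ap, sd and bs) and of 5 of 6 tracheal marker genes, with serp as the exception. The same held for 3 of 5 hemocyte, 2 of 4 muscle, 3 of 3 neuron and glia, and 2 of 3 fat body genes. The part of any other cell type in the results above was not tested.

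The windows around the genes also set which regions were counted. The outermost vvl region on the higher side lay 39523 bp from the gene, just inside 40 kb, and the next one outside (6851619 to 6852205, 56903 bp away) was in all 4 lists, at 16.8 and 23.3 in Osa-deGrad wings and at 75.7 and 64.3 in control wings. On the lower side the last region inside, at 39113 bp, was in control replicate 1 alone, and the first outside, at 40259 bp, in Osa-deGrad replicate 1 alone. At trh the last region inside 10 kb lay at 9969 bp, in all 4 lists with percentiles of 81.8 and 94.5 in Osa-deGrad wings, and of 91.6 and 91.8 in the controls. The first outside bnl, at 10138 bp, was in the replicate 2 lists of both genotypes.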

How the data were processed

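The narrowPeak files of 4 FAIRE-seq libraries, each with its own list, were used (build dm6). MACS2 2.1.2, Picard 2.2.4, Bowtie2 2.3.4.1, deepTools 2.4.1 and SAMtools 1.9 are listed in the submitters' processing notes, with no roles. The deposited lists give, per peak, a fold enrichment (a ratio over the caller's background), −log10 p and −log10 q values, a summit offset and a score. In every peak that deposited score was 10 times −log10 q, cut to a whole number. The lowest deposited −log10 q was 1.31 to 1.40 per library, and neither the caller's settings nor a control track is given in the sources used here. The values are the authors' own for each peak, and each describes a peak within its list. Values of several lists stand side by side, and at trh these include fold enrichment and −log10 q themselves. With read depth unknown, they are not a measure of a difference in signal.

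With Python 3.11.15 and pandas 2.3.3, peaks overlapping by at least 1 bp were merged, and a region took the highest percentile of its peaks in each list. Summits are 1-based. Merging and classes were checked on simulated lists. Gene coordinates were those of RefSeq on Release 6 plus ISO1 MT, which is dm6, in a table without strand or exons. Ends of a gene are therefore named by coordinate, and exonic or intronic position is not given. Named regions were all genotype-specific ones, the strongest shared region per locus and those within 500 bp of an end of the gene. Shared regions whose percentiles did not overlap between genotypes (up to 3 per locus) were also named. Other regions named in the text fall outside this rule, and only some of them are marked as picked out later. The values of 2 regions that this rule names are not reported here. The genes, lists and rules were chosen with earlier results of these data known. A motif search of promoters, planned at first, was left out, as sequences were not used here. No test was run.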

Additional observations from a re-analysis of the deposited data

How the results depend on the processing

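Of 36 alternative counts of control-only, deGrad-only and shared regions, 22 stayed within 1.5 times the count and 14 moved. The causes of the moves were not tested, except that stricter thresholds and narrower windows hold fewer peaks, and wider windows more, by construction. With −log10 q of at least 5 there was 1 deGrad-only region; with at least 10 there were 0 deGrad-only, 2 control-only and 10 shared regions. Of the 9 control-only regions, 5 kept their class at 5 and 1 at 10, and 7 did with summits within 150 bp. In windows of 10 kb for every gene there were 5 control-only regions, and in windows of 5 kb 1 deGrad-only and 5 control-only regions. Windows of 40 kb for every gene held 49 shared regions. Leaving out 1 library gave 3 to 16 deGrad-only and 9 to 21 control-only regions. With lists of equal length (13953 peaks) all 9 control-only regions and 1 of the 2 deGrad-only regions kept their class. The median difference of -1.29 points ranged from -3.59 points (summits within 150 bp) to -0.442 points (without control replicate 2) over 15 alternatives. As a replicate block, differences taken within same-numbered pairs and averaged gave -1.29 points by construction, with medians of -1.11 in pair 1 and -0.841 in pair 2. No paired test was run, because the genes were chosen on these libraries. The unknown depth limits every statement on a missing peak.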
